A study of Caenorhabditis elegans with 24 samples.

Results

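Transcript levels were compared between whole young adult Caenorhabditis elegans of an xpa-1 mutant and of the wild type, both 3 h after UVC irradiation. The comparison rests on 8 of the 24 arrays of the series, 4 of irradiated xpa-1 animals and 4 of irradiated N2 animals, chosen by their strain and treatment labels, and covers 22548 probe sets that stand for 17118 genes. The xpa-1 animals carried an xpa-1 deletion (strain RB864, outcrossed 3 times), and N2 is the ancestral wild type. Both were reared at 25°C, taken 24 h after the vulval crescent of the last larval stage, given 50 J/m2 of UVC and frozen 3 h later. Untreated xpa-1 and N2 animals of the same age and temperature, 4 arrays each, served to show which strain differences were present without UVC. The remaining arrays of the series, of untreated and irradiated glp-1 mutants, entered the normalization, the year term and the shared estimate of spread. Each group was measured on 2 arrays in 2007, from 500 pg of RNA amplified with a TargetAmp kit, and on 2 arrays in 2008, from 100 ng amplified with an Affymetrix kit. No label states that arrays of the same year were separate cultures. The p-values then reflect only the spread between the samples of the series, glp-1 mutants included, which may be technical. The mutant is 1 strain, so its other sequence differences from N2 are part of every comparison.

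UVC joins neighbouring pyrimidines in DNA into photoproducts that block RNA and DNA polymerases. Nucleotide excision repair removes them: a stalled RNA polymerase or a damage sensor recognises the lesion, XPA verifies it beside the helicase complex TFIIH, and nucleases cut out the damaged strand. Animals without XPA cannot complete that excision. The comparison asked how the transcript profile 3 h after exposure differs where XPA is missing; lesions were not measured here.

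The deposited intensities were brought to a common distribution over all arrays and are given as log2(value + 32), called the level below, whose lowest possible value is 5.00. A difference is the level in irradiated xpa-1 animals minus that in irradiated N2 animals, from a limma model with year as a block, and a probe set was called at a Benjamini-Hochberg adjusted p under 0.05. The arrays of 2007 had median intensities of 5.59 to 8.42 and those of 2008 of 116.3 to 190.5. Across probe sets, the arrays of a group correlated with Spearman coefficients of 0.826 (irradiated xpa-1) and 0.882 (irradiated N2) in 2007, and of 0.977 and 0.971 in 2008. Markers of oocytes and the germ line were well above the lowest level in all 8 arrays: rme-2, the yolk receptor of oocytes, lay at 12.74 to 13.04 in irradiated xpa-1 and 13.01 to 13.19 in irradiated N2 animals. Major sperm protein genes varied within both groups, with msp-19 at 6.35 to 11.17 and 6.19 to 10.77. Of the embryonic markers, end-3 was near the lowest level, at 5.00 to 5.34 and 5.00 to 6.59. Higher than that, end-1 lay at 5.72 to 7.34 and 6.39 to 6.92, and pes-10 at 5.71 to 7.48 and 6.57 to 8.17.

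After UVC the strains differed in 3 called transcripts, xpa-1 itself, mks-6 and haf-6, all of chromosome I and all of similar size without UVC. These are 3 of 22548 probe sets, or 0.0133%. Chromosome I holds 2469 of the 17075 genes with a known chromosome. Of the called transcripts, xpa-1 is the deleted gene and mks-6 its neighbour, so their chromosome was given by the strain. In the test of whether the strain difference after UVC departs from that without UVC, 0 probe sets were called (0%) by limma, with 450 at an unadjusted p under 0.05, where 1127.4 would be expected if no probe set differed. The same strains compared without UVC gave 2 calls (0.00887%), xpa-1 and mks-6. The strain difference averaged over both treatments, a contrast added after the data were seen, gave 4 (0.0177%).

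The xpa-1 transcript is the check of the labels. It was at 5.28, 5.25, 5.07 and 5.00 in the irradiated xpa-1 arrays and at 8.92, 9.34, 9.90 and 10.07 in the irradiated N2 arrays. Every mutant array lay at or near the lowest level and none overlapped with N2. On the log2 scale the transcript fell by 4.41 (SE 0.40, adjusted p = 1.99e-05), and in untreated animals by 3.84 (SE 0.40, adjusted p = 1.93e-04). With the irradiated mutant at or near the lowest level, the size is set by the added constant and is no measure of the fold: it was -7.71 with 1 added and -2.99 with 100 added. On the deposited intensity scale the 2008 arrays read 6.6 and 1.9 in irradiated xpa-1 animals, against 2652.2 and 2143.1 in irradiated N2 animals. Probe positions within the gene were not given in the sources used here, so whether they lie in the deleted part is not known here.

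The gene after xpa-1 in the annotation order is mks-6, whose product sits in the transition zone, the gate at the base of sensory cilia. Its level was 8.96, 9.93, 9.43 and 9.16 in irradiated xpa-1 animals and 5.89, 5.55, 6.49 and 6.39 in irradiated N2 animals. All mutant arrays stood above all N2 arrays. The transcript rose by 3.29 (SE 0.34, adjusted p = 1.06e-04), and by 3.13 (SE 0.34, adjusted p = 2.38e-04) without UVC. Its 2008 intensities were 1600.7 and 1369.7 in irradiated xpa-1 animals, against 170.7 and 91.7 in irradiated N2 animals, an 11.3-fold ratio of the means. Of the 5 measured genes nearest before xpa-1 and the 5 nearest after it, the other 9 were not called, with differences of -0.25 to 0.50, the highest at K07G5.5.

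The gene haf-6 encodes a half-molecule ABC transporter and lies on the same chromosome, 1115 protein-coding genes before xpa-1. Its level was 7.18, 6.18, 6.28 and 6.15 in irradiated xpa-1 animals and 9.27, 9.31, 7.71 and 8.27 in irradiated N2 animals. The groups did not overlap, although N2 was higher in 2007 than in 2008. The transcript fell by 2.19 (SE 0.36, adjusted p = 0.0448), and its untreated difference was -1.98 (SE 0.36, adjusted p = 0.14). The call was the least secure of the 3: with the replicate number as a block its adjusted p was 0.107, and without any single irradiated array it was 0.0675 to 0.28.

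**Figure D1:**
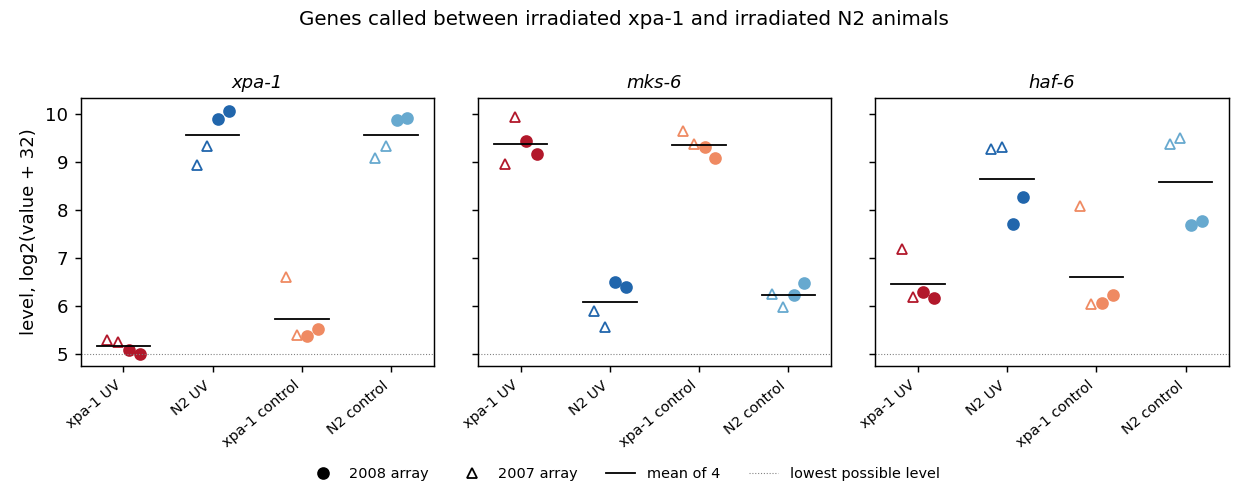
Levels of xpa-1, mks-6 and haf-6, as log2(value + 32), in each array of the irradiated xpa-1, irradiated N2, untreated xpa-1 and untreated N2 groups; triangles are 2007 arrays, circles 2008 arrays, short lines group means and the dotted line the lowest possible level. In each panel the 2 xpa-1 groups lie at similar levels to each other and apart from the 2 N2 groups, except for 1 untreated xpa-1 array of 2007, at 8.07 for haf-6.

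The 3 called transcripts had interaction values of -0.57 (SE 0.56) for xpa-1, 0.16 (SE 0.49) for mks-6 and -0.21 (SE 0.50) for haf-6, with adjusted p = 1.0 each. Untreated and irradiated strain differences share no array. Across 17118 genes they correlated with a Pearson coefficient of 0.179, a description over genes measured on common platforms and years. Of the 508 genes at an unadjusted p under 0.05 after UVC, 303 (59.6%) had the same sign without UVC. The count at an unadjusted p under 0.05 in both comparisons was 42, of which 36 had the same sign. The share with the same sign over all genes is not given here, so neither count is read as a result about these genes.

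**Figure D2:**
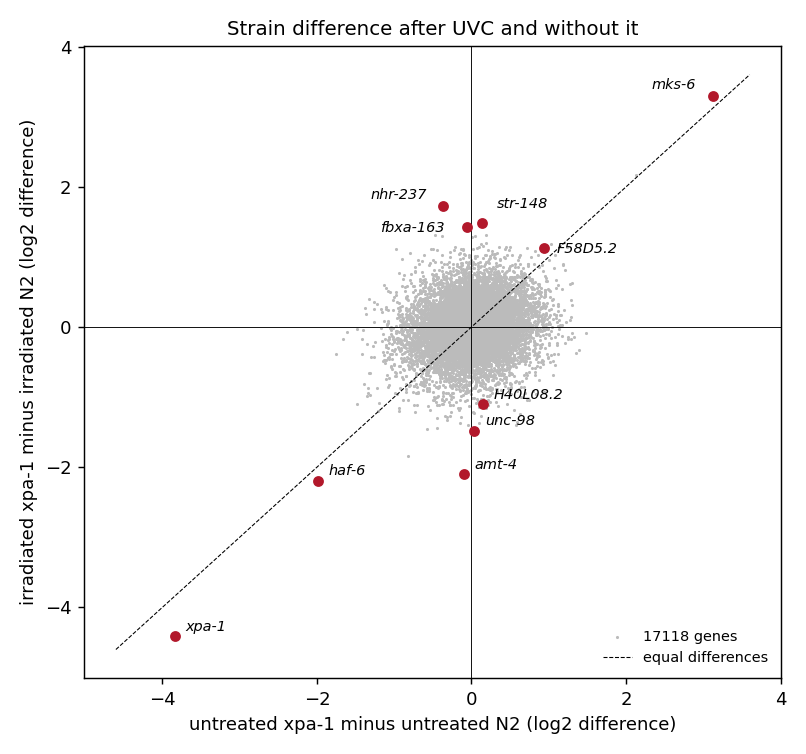
Strain difference of each of 17118 genes without UVC (horizontal axis) and after UVC (vertical axis), both as log2 differences of xpa-1 minus N2, with named genes in red and the dashed line marking equal differences. The genes xpa-1, mks-6 and haf-6 lie near the line, while amt-4, H40L08.2 and fbxa-163 lie near 0 on the untreated axis.

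With the 3 called genes included, 275 genes were higher (1.61%) and 233 lower (1.36%) in irradiated xpa-1 animals at an unadjusted p under 0.05. Over probe sets, 683 reached that limit by limma, where 1127.4 would be expected if no probe set differed. The signs of the 2007 and 2008 differences matched in 8083 of 17118 genes. A gene with a difference of exactly 0 in either year counts there as no match, so this is not a share of genes able to match. The differences of both years correlated with a Pearson coefficient of 0.083 across genes. Single genes that were not called are therefore given with their values by array and year. Most were taken by small p, and those nearest to a call also by equal sign in both years. Groups that do not overlap thus follow in part from that choice and are no separate support. The share of all genes whose groups do not overlap is not given here.

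The uncharacterised gene H40L08.2 came nearest to a call among genes with the same sign in both years. Its level was 8.21, 8.18, 7.72 and 7.94 in irradiated xpa-1 animals and 8.92, 9.37, 9.26 and 8.89 in irradiated N2 animals. The groups did not overlap in either year. The difference was -1.1 (SE 0.20, adjusted p = 0.11), against 0.14 (SE 0.20) without UVC, and its interaction value of -1.24 (SE 0.28, unadjusted p = 2.43e-04, adjusted p = 1.0) had the smallest p of any gene. Relative to untreated animals of the same strain, its level after UVC differed by -1.49 in xpa-1 and by -0.25 in N2.

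The gene amt-4 encodes a member of the ammonium transporter family. Its level was 5.48, 6.17, 6.56 and 6.64 in irradiated xpa-1 animals and 9.29, 8.99, 7.36 and 7.61 in irradiated N2 animals. The groups did not overlap, and the gap was wider in 2007 (-3.31) than in 2008 (-0.89). The difference was -2.1 (SE 0.39, adjusted p = 0.16), against -0.10 (SE 0.39) without UVC. It was called with a year term per strain (-2.89, adjusted p = 0.0023) and with array weights (-1.24, adjusted p = 0.049). The difference fitted with a year term per strain refers to 2007, not to the average of both years. The irradiated xpa-1 arrays were the lowest of the 16 arrays of both strains.

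Of the genes on the lower side, mua-3, which encodes a membrane protein that anchors the epidermis to the cuticle, had levels of 5.56, 6.05, 6.83 and 6.83 in irradiated xpa-1 and 8.15, 7.81, 7.41 and 7.38 in irradiated N2 animals. The groups did not overlap, the difference was -1.37 (SE 0.33, adjusted p = 0.83), and a dimmer probe set of the gene stood at -0.099. Untreated mua-3 differed by 0.093. The remaining genes nearest to a call on this side were Y57A10A.6 (-1.26), F55H12.3 (-0.87), the neuropeptide receptor gene dmsr-1 (-1.21), the FMRFamide-like peptide gene flp-10 (-0.90) and ifbp-1 (-0.76), each with adjusted p of 0.71 or higher. In each of these 5 the 2007 difference was the larger one; F55H12.3 and dmsr-1 differed by -1.51 and -1.88 in 2007 and by -0.24 and -0.54 in 2008.

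On the higher side, fbxa-163, an F-box gene whose products serve as adaptors of ubiquitin ligases, had a level of 9.45, 7.70, 8.84 and 8.74 in irradiated xpa-1 animals and 7.0, 7.14, 7.26 and 7.59 in irradiated N2 animals. All mutant arrays were above all N2 arrays, by 1.5 on average in 2007 and 1.36 in 2008. The difference was 1.43 (SE 0.33, adjusted p = 0.71), against -0.061 (SE 0.33) in untreated animals. Untreated arrays of both strains lay between 5.00 and 6.47, and UVC-treated animals stood above untreated ones by 2.93 in xpa-1 and 1.44 in N2. This gene had been named in earlier results on these arrays as raised by UVC, so its value here is not independent evidence. The interaction value was 1.49 (SE 0.47, unadjusted p = 0.0049, adjusted p = 1.0).

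The chemoreceptor gene str-148 had levels of 7.72, 7.06, 6.63 and 6.84 in irradiated xpa-1 and 5.11, 5.00, 6.19 and 5.99 in irradiated N2 animals. Its groups did not overlap, with a difference of 1.49 (SE 0.30, adjusted p = 0.30) and of 0.14 without UVC, and it was at or near the lowest level in untreated animals. With a year term per strain it was called at 1.89 (adjusted p = 0.022). The gene lite-1, which encodes a receptor for ultraviolet and blue light in sensory neurons, stood at 8.28, 8.95, 7.31 and 7.26 in irradiated xpa-1 and 7.33, 7.27, 6.98 and 6.57 in irradiated N2 animals. Its groups overlapped when years were pooled but were apart within each year, and the difference of 0.91 (SE 0.20, adjusted p = 0.56) compares with -0.14 without UVC.

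The gene F58D5.2 of chromosome I differed between the strains with and without UVC. Its level was 10.06, 10.34, 9.77 and 10.25 in irradiated xpa-1 and 9.14, 9.27, 9.23 and 8.28 in irradiated N2 animals. The difference was 1.13 (SE 0.25, adjusted p = 0.56) after UVC and 0.94 (SE 0.25) without it, and the groups did not overlap. Other genes nearest to a call on the higher side were ngn-1, a neurogenin transcription factor gene (1.3), nssp-36 (1.31), F21E9.2 (0.83), B0513.4 (0.73) and ttr-48, of the transthyretin-related family (0.53), each with adjusted p = 1.0. The most even of them was ttr-48, at 9.60, 9.76, 9.70 and 9.5 in irradiated xpa-1 and 9.0, 9.0, 9.15 and 9.30 in irradiated N2 animals.

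**Figure D3:**
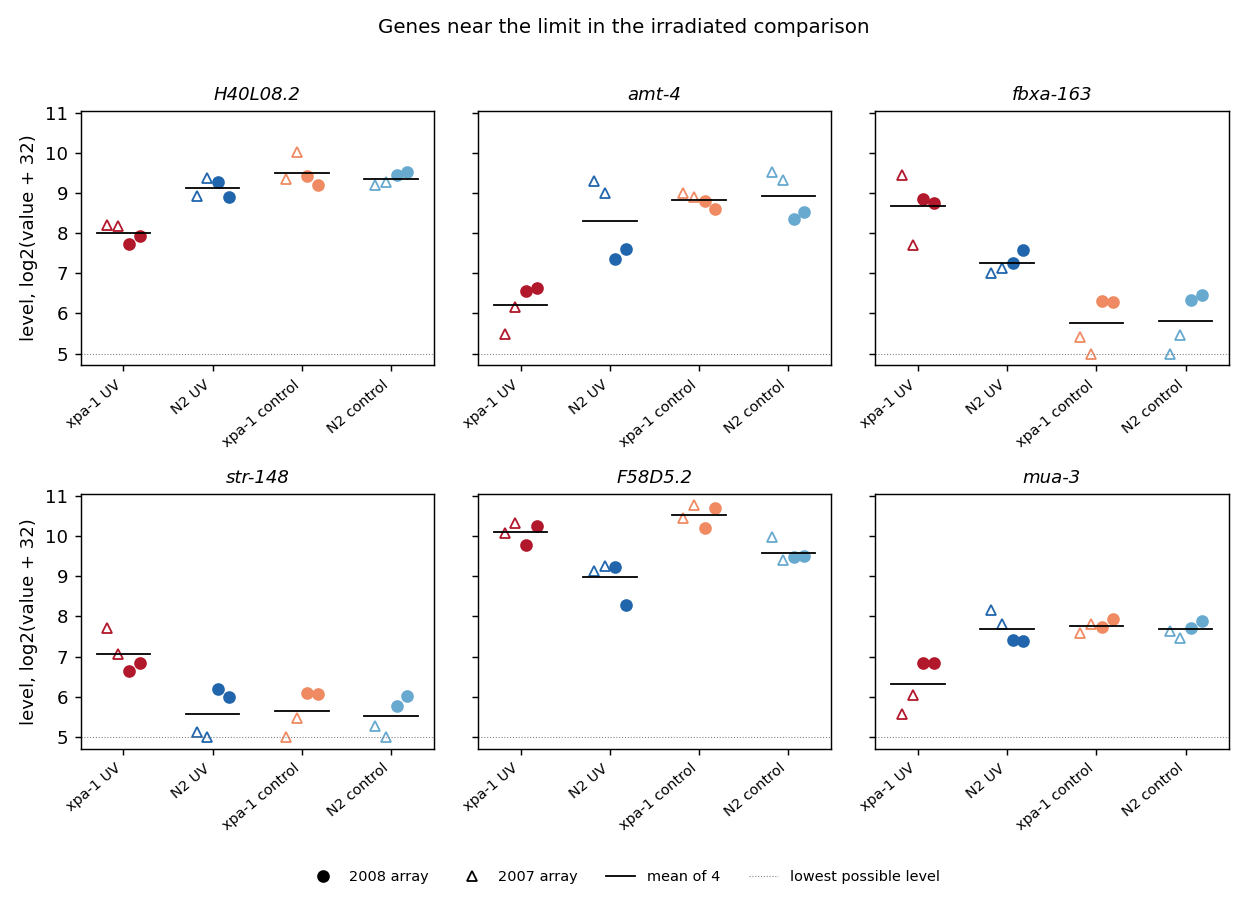
Levels of H40L08.2, amt-4, fbxa-163, str-148, F58D5.2 and mua-3, as log2(value + 32), in each array of the irradiated xpa-1, irradiated N2, untreated xpa-1 and untreated N2 groups; triangles are 2007 arrays, circles 2008 arrays, short lines group means and the dotted line the lowest possible level. None was called. For H40L08.2, amt-4, fbxa-163, str-148 and mua-3 the irradiated xpa-1 arrays stand apart from the other 3 groups. For F58D5.2 the means of both xpa-1 groups lie above those of both N2 groups. The genes were taken by small p in the irradiated comparison, so separation of its groups follows in part from that choice.

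The other genes with the smallest interaction p were trpp-5, a subunit gene of the TRAPP complex of vesicle transport (-0.95, SE 0.23), flp-10 (-1.28, SE 0.34), C46A5.1 (-1.46, SE 0.39) and prdh-1, the gene of proline dehydrogenase (-1.78, SE 0.48), each with adjusted p = 1.0. For prdh-1 the irradiated levels were 5.61, 5.49, 7.31 and 7.38 in xpa-1 and 7.58, 7.36, 7.43 and 7.57 in N2. Its strain difference was thus -1.92 in 2007 and -0.15 in 2008.

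The residual spread was larger in 2007, and a fit that gave the 2008 arrays 7.60 times the weight of the 2007 arrays called 14 probe sets, 10 higher and 4 lower in irradiated xpa-1 animals, and 0 for the interaction (smallest adjusted p = 0.28). This alternative included the 3 transcripts above. It also called H40L08.2 at -1.21 (SE 0.14, adjusted p = 5.07e-04, untreated -0.093), fbxa-163 at 1.38 (SE 0.22, adjusted p = 0.0158, untreated -0.090) and F58D5.2 at 1.23 (SE 0.23, adjusted p = 0.0469, untreated 0.96). The other 8 were chosen for the text after their values were seen. They were F31F7.1 (-1.04), far-8, of the fatty acid and retinol binding family (0.93), scl-2 (0.96), spig-11 (0.84), phat-7 (0.71), K12H6.6 (0.66), ttr-46 (0.64) and a probe set of pgrn-1, the progranulin gene (0.50), which is not the brightest of that gene. In the unweighted model they had adjusted p = 1.0 each.

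Both far-8 and scl-2 differed more in 2008 than in 2007. The level of far-8 was 10.34, 10.20, 10.36 and 10.56 in irradiated xpa-1 animals and 10.23, 10.24, 9.67 and 9.14 in irradiated N2 animals. Its groups overlapped in 2007 (0.041) and were apart in 2008 (1.05). The level of scl-2 was 11.24, 11.09, 11.16 and 11.04 in irradiated xpa-1 and 10.34, 10.89, 10.14 and 10.03 in irradiated N2 animals, with differences of 0.55 in 2007 and 1.01 in 2008 and no overlap in either.

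Among the genes of excision repair other than xpa-1, none was called. Of 29 measured genes 0 reached an unadjusted p under 0.05, 14 were above 0 and 15 below, and their median difference was -0.019, beside 0.0012 over all genes. The range ran from -0.52 for csa-1, which acts in the transcription-coupled branch, to 0.38 for cyh-1, the cyclin of the TFIIH kinase. The lesion sensor xpc-1 stood at -0.48 (SE 0.71) and the nuclease xpg-1 at -0.15 (SE 0.24). Of 38 genes of other DNA repair pathways 0 were called and 0 reached an unadjusted p under 0.05 (median -0.077); the recombinase rad-51 stood at 0.29 and fnci-1, of the Fanconi anaemia pathway, at -0.48.

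Genes of the damage checkpoint and of cell death were not called either. Of 38 measured, 0 reached an unadjusted p under 0.05 (median -0.078). The nematode p53 gene cep-1 stood at -0.20 (SE 0.25). Its cell death targets egl-1 and ced-13 stood at -0.18 (SE 0.54) and 0.46 (SE 0.39). For ced-13 the irradiated levels were 7.88, 5.57, 5.79 and 6.50 in xpa-1 and 6.52, 5.52, 5.62 and 6.22 in N2, so that the first 2007 array carried most of the difference. The members with the smallest p were the apoptotic nuclease nuc-1 (0.43) and the engulfment gene ced-5 (-0.42).

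The 2 other genes that earlier results named as raised by UVC had near equal levels in both strains. The cation-transporting ATPase gene catp-3 was at 10.72, 10.08, 10.12 and 10.45 in irradiated xpa-1 and 10.92, 10.49, 9.50 and 10.15 in irradiated N2 animals, a difference of 0.079 (SE 0.38), with UVC effects of 2.24 in xpa-1 and 2.23 in N2. The gene F54B8.4 differed by -0.089 (SE 0.47), with UVC effects of 2.09 in xpa-1 and 2.39 in N2. The Notch receptor gene glp-1, which maintains germ line stem cells, differed by -0.014 (SE 0.40).

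No member of the housekeeping groups was called, and apart from histone genes their medians lay between -0.036 and 0.040, beside 0.0012 over all genes. Of 34 genes of RNA polymerase II transcription the median was -0.036, with taf-6.1 at -0.33 and rpb-6 at 0.22. Of 75 ribosomal protein genes it was 0.011, with rpl-34 at 0.37 and rps-28 at 0.36. Of 25 genes of ribosome biogenesis and translation it was -0.030, with pro-3 at 0.56 and nol-56 at -0.20. Of 33 proteasome genes it was 0.040, with rpt-6 at -0.93 and pas-2 at 0.29; rpt-6 differed by -2.17 in 2007 and 0.30 in 2008. Of 48 cell cycle and replication genes it was -0.012, with mdf-2 at 0.40 and pola-1 at 0.27. Histone genes had a median of 0.11 over 34 members, 25 of them above 0, with his-71 at 0.91 and his-35 at 0.25. The histone median was 0.021 in 2007 and 0.22 in 2008, and it was 0.24 without xpa-1 UV 2007-2 or N2 UV 2007-1, 0.17 without N2 UV 2008-2, 0.029 with median centring and -0.011 on values as deposited.

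Stress and defence groups also held no called member. In each case the count at an unadjusted p under 0.05 is read against 1.61% higher and 1.36% lower over all genes. Of 26 genes of oxidative stress and metal response 2 were higher at that limit, the glutathione peroxidase gpx-1 (0.97, SE 0.28) and the thioredoxin reductase trxr-1 (1.06, SE 0.44), and 0 lower. A dimmer probe set of trxr-1 stood at 0.022. The level of gpx-1 was 6.12, 7.71, 7.31 and 7.50 in irradiated xpa-1 and 5.48, 5.55, 6.87 and 6.86 in irradiated N2 animals, which is apart within each year and overlaps between years. Of 42 oxidative phosphorylation genes 33 were above 0 (median 0.082), 2 of them at an unadjusted p under 0.05, asg-1 (0.40) and cox-6A (0.24). Dimmer probe sets of cox-6A stood at 0.029 and -0.016, and a dimmer probe set of asg-1 at 0.19. The list's median was -0.13 with median centring and -0.17 on values as deposited.

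Of 37 genes of ubiquitin ligase adaptors and the intracellular pathogen response, 1 was higher at an unadjusted p under 0.05, pals-29 (1.14, SE 0.42), with skr-9 at 0.58 and a list median of 0.11. Among 395 F-box and MATH domain genes, 11 were higher (2.78%) and 5 lower (1.27%), with fbxa-163 and fbxa-121 (-1.06) having the smallest p. Among 220 C-type lectins 3 were higher (1.36%) and 0 lower, with clec-176 at 1.08 and clec-62 at 0.53. Of 40 innate immunity genes 1 was higher, spp-18 (0.53), and 1 lower, hlh-30 (-0.40). Dimmer probe sets of hlh-30 stood at -0.44 and 0.43. Of 186 genes of xenobiotic metabolism 3 were higher and 2 lower, with gst-2 at 0.82 and cyp-13A4 at 0.90. With a year term per strain cyp-13A4 was called at 1.72 (adjusted p = 1.74e-04), and with the 2008 arrays alone it stood at -0.11. Among 254 nuclear hormone receptors 7 were higher and 7 lower (2.76% each), with nhr-237 at 1.73 and nhr-88 at -0.51.

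The nhr-237 difference rested on 2007. Its level was 8.31, 8.45, 5.98 and 6.06 in irradiated xpa-1 and 5.00, 5.36, 6.22 and 5.31 in irradiated N2 animals, a difference of 3.20 in 2007 and 0.25 in 2008. Chaperone and organelle stress genes gave medians of -0.044 over 25 heat shock genes (hsp-43 at -0.42, dnj-13 at -0.19), -0.019 over 22 genes of endoplasmic reticulum stress (crt-1 at -0.32, pdi-6 at 0.24) and 0.016 over 22 of mitochondrial stress (atfs-1 at 0.45, pdr-1 at -0.19). Insulin signalling had a median of -0.035 over 34 genes (daf-16 at -0.51, daf-2 at -0.30) and lipid metabolism and yolk -0.041 over 45 (sbp-1 at -0.39, lipl-7 at 0.18).

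In whole animals, fewer cells of a type and less RNA per cell cannot be told apart, so tissue markers are given as levels only. Body wall and pharyngeal muscle genes stood lower in the mutant as a list: 38 of 40 were below 0, with a median of -0.20, against 8236 of 17118 genes below 0 in all. No muscle gene was called, and 1 reached an unadjusted p under 0.05, unc-98, which encodes a zinc finger protein of muscle attachments (-1.48, SE 0.51). The median level of the list by array was 9.66, 8.73, 9.59 and 9.38 in irradiated xpa-1 and 9.93, 9.01, 9.89 and 9.58 in irradiated N2 animals. The same list had a median of -0.22 without UVC, and 21 of the 40 were lower in both years after UVC. The irradiated median was -0.40 on values as deposited, -0.36 with median centring and -0.13 scaled to the 75th percentile, beside -0.081, -0.041 and 0.038 over all probe sets. It was -0.32 without xpa-1 UV 2007-1, -0.038 without xpa-1 UV 2007-2, -0.12 without N2 UV 2007-1, -0.13 without N2 UV 2008-1 and -0.40 without N2 UV 2007-2. Troponin T (mup-2) stood at -1.06, with xpa-1 UV 2007-2 at 5.32 and the other irradiated xpa-1 arrays at 9.42, 10.52 and 10.17.

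Sperm genes had a median of 0.24 over 52 members, 43 of them above 0, and none was called or reached an unadjusted p under 0.05. The list's median level by array was 8.36, 7.04, 5.77 and 5.42 in irradiated xpa-1 and 8.03, 6.70, 5.42 and 5.5 in irradiated N2 animals, so that year and array moved it more than strain. The median difference was -0.099 without xpa-1 UV 2007-1, 0.54 without N2 UV 2007-1, 0.45 without xpa-1 UV 2008-2 and 0.058 without N2 UV 2008-1. It was 0.050 with the 2008 arrays alone, 0.060 on values as deposited and 0.10 with median centring. The members with the smallest p were the seminal protease gene try-5 (0.98) and ssp-10 (0.48). The part of sperm content in other results was not tested.

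The other tissue lists had medians between -0.082 and -0.014. Germ line genes stood at -0.014 over 44 (1 higher at an unadjusted p under 0.05, the Notch effector lag-1 at 0.48; zim-1 at -0.85) and oocyte and maternal genes at -0.036 over 36 (mbk-2 at -0.26, par-3 at -0.28). A dimmer probe set of lag-1 stood at 0.026. Embryonic genes stood at -0.037 over 24 (pes-10 at -0.82, nob-1 at -0.70); with a year term per strain pes-10 was called at -1.94 (adjusted p = 0.021), and with the 2008 arrays alone it stood at 0.37. Among 44 neuronal genes 3 (6.82%) were lower and 1 higher at an unadjusted p under 0.05, beside 1.36% lower and 1.61% higher over all genes, with a median of -0.064; the GABA receptor gene unc-49 stood at -0.99 and the choline acetyltransferase gene cha-1 at -1.19.

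Intestinal genes stood at -0.037 over 31, with the inositol trisphosphate receptor gene itr-1 at -0.50 (groups not overlapping) and the acid phosphatase gene pho-1 at -0.48. Dimmer probe sets of itr-1 stood at -0.0089, 0.25 and -0.047, and a dimmer probe set of pho-1 at -0.22. Epidermal and cuticle collagen genes stood at -0.047 over 156 (elt-3 at -0.72, dpy-5 at -0.70), and genes of the spermatheca and somatic gonad at -0.068 over 24 (ceh-18 at -0.84, spv-1 at 0.53). Cilium genes had a median of -0.082 over 42, in contrast to mks-6, the 1 member called; dyf-13 stood at 0.74.

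**Figure D4:**
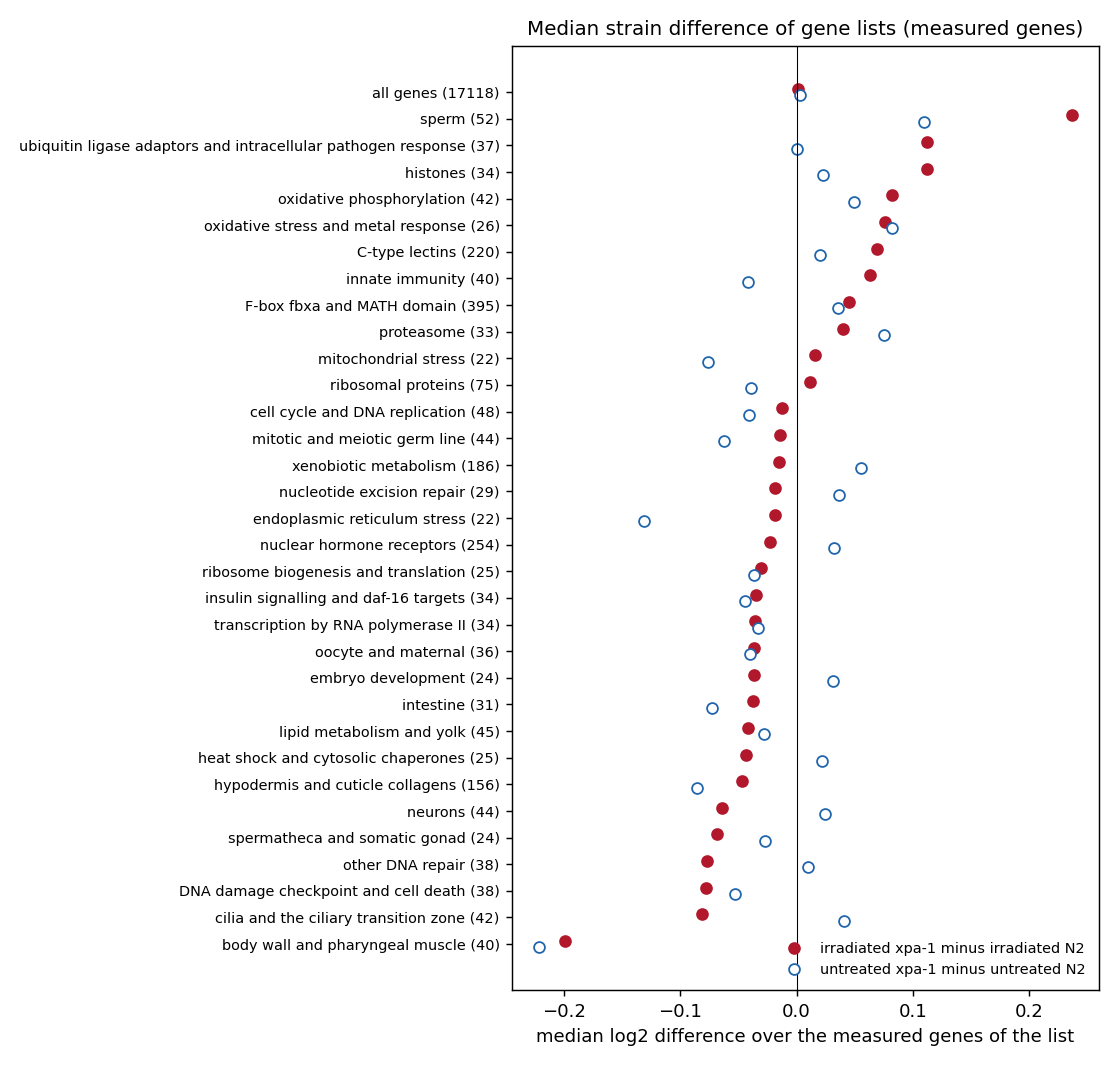
Median log2 difference of xpa-1 minus N2 over the measured genes of each list (number in brackets), after UVC (filled red) and without UVC (open blue), with all genes at the top. Medians lie between -0.22 and 0.24, with muscle genes lowest in both treatments and sperm genes highest after UVC.

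Genes were also ordered by the span of their annotation. The span came from the WBcel235 gene table and was known for 99.7% of genes, with 16170 protein-coding genes used. From the shortest to the longest of 4 equal classes the median difference after UVC was 0.058, 0.023, -0.0089 and -0.063. Without UVC it was 0.033, 0.0088, 0.0096 and -0.039, and for the interaction 0.025, 0.015, -0.015 and -0.020. The share of genes lower at an unadjusted p under 0.05 was 0.494%, 0.842%, 1.58% and 2.45% after UVC, and the share higher was 2.67%, 1.63%, 1.19% and 0.891%. The order of the medians after UVC was the same on values as deposited (-0.017, -0.049, -0.11 and -0.19), with median centring (0.024, -0.0086, -0.070 and -0.15) and scaled to the 75th percentile (0.087, 0.064, 0.034 and -0.00051), while their signs moved with the scaling.

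For the 181 genes with a span over 20000 bases, a class chosen after the data were seen, the median was -0.16 after UVC and -0.089 without it. It was -0.050 in 2007 and -0.23 in 2008 after UVC, and 0.018 in 2007 and -0.17 in 2008 without it. Centred on each gene's mean over the irradiated arrays, the class median was 0.25 in N2 UV 2008-1 and -0.13 to 0.062 in the other arrays, and without N2 UV 2008-1 the difference after UVC was -0.096. It was -0.29 on values as deposited, -0.25 with median centring and -0.068 scaled to the 75th percentile. The interaction median of that class was -0.015. The part of RNA quality and amplification in the order by span was not tested.

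**Figure D5:**
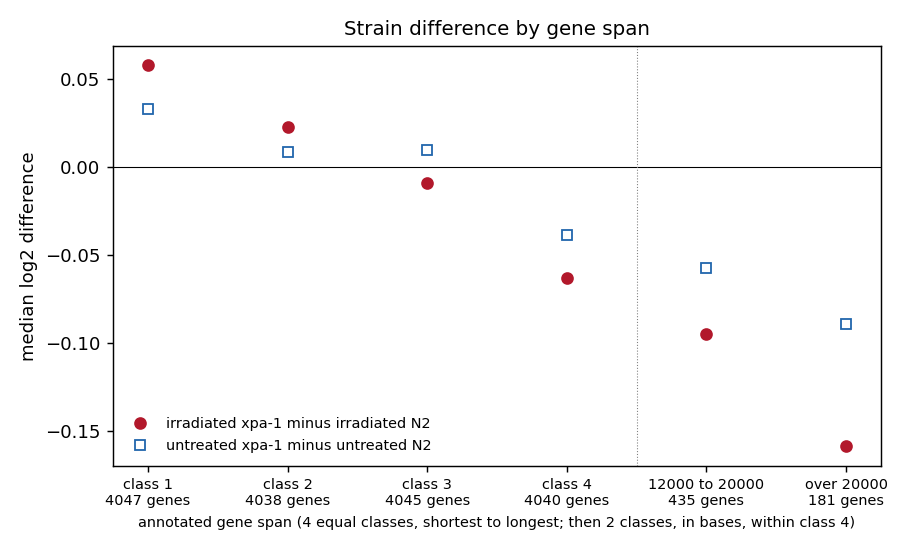
Median log2 difference of xpa-1 minus N2 in 4 equal classes of annotated gene span, shortest to longest, and in 2 classes within the longest of them, after UVC (circles) and without UVC (open squares). Medians after UVC go down with span over the 4 classes to -0.063 and reach -0.16 in the longest class, and the untreated medians lie at -0.039 and -0.089 there.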

How the data were processed

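The deposited values are intensity values of 22548 probe sets on a linear scale, with 18.6% below 0; the authors' methods of summary and background were not given in the sources used here. Per the labels, biotin-labelled material was hybridised to single-channel Affymetrix arrays. Values were quantile normalized over all 24 arrays, set to 0 where negative, and taken as log2(value + 32). A group mean and a year term were fitted to all arrays in limma 3.58.1 (R 4.3.3), with 17 residual and 2.24 prior degrees of freedom; p-values are two-sided. The number of arrays limits the precision, with a median SE of 0.33.

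Of the probe sets, 20766 carried 1 gene, 887 several and 895 none; 0 symbols needed updating. Each gene is read from its brightest probe set among those that name no other gene. Dimmer probe sets of named genes did not always follow it. Those of spv-1 (-0.21), ifbp-1 (0.29), spig-11 (-0.050) and pro-3 (-0.083) had the opposite sign. Beside those given above, so did at least 1 of daf-16 (0.48), daf-2 (0.063), unc-49 (0.31), nob-1 (0.32), mbk-2 (0.43) and nhr-88 (0.099). Those of ceh-18 (-0.11), elt-3 (-0.15) and cha-1 (-0.49) had the same sign but were closer to no difference. Those of K12H6.6 (0.38) and F58D5.2 (0.57) had the same sign. Named genes were the called ones, up to 10 nearest to a call per direction with equal sign in both years, genes fixed by name, 5 neighbours on each side of xpa-1, 5 by interaction p, and 2 per list by p. The comparison, the gene lists and these rules were chosen with earlier results of these data known. Irradiated arrays with equal replicate numbers deviated together (correlation across genes 0.19 in 2007, 0.31 in 2008), while untreated ones gave -0.090 and 0.23, so the irradiated comparison was refitted with a replicate block; no label states a shared culture. Alternatives covered scaling, the added constant, filters, weights, years and single arrays. No sequence or coordinate is printed.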

Additional observations from a re-analysis of the deposited data

Results flagged for a closer look

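Within groups of 4 irradiated arrays, single values of the genes named in the text were compared with the other 3 by Dixon's test at its 95% level. Of 202 tests 14 passed. Chance gives about 1 in 20 only for values of a single normal population. These groups mix both years and some lie at the lowest level, so their chance rate is not known. In irradiated xpa-1 animals the array 2007-1 stood apart for haf-6 (7.18, others 6.15 to 6.28), ifbp-1 (6.59, others 7.28 to 7.39), csa-1 (5.46, others 6.81 to 6.96) and his-35 (9.53, others 9.07 to 9.14). In the same group 2007-2 stood apart for glp-1 (11.15, others 10.62 to 10.66) and 2008-1 for fbxa-121 (5.67, others 5.00 to 5.11). In irradiated N2 animals the array 2007-1 stood apart for pola-1 (8.67, others 9.28 to 9.33), and 2007-2 for taf-6.1 (7.92, others 9.21 to 9.29), skr-9 (9.50, others 8.74 to 8.84) and mup-2 (8.57, others 10.22 to 10.44). The N2 array 2008-1 stood apart for F21E9.2 (5.61, others 5.00), gst-2 (5.59, others 5.00 to 5.04) and dyf-13 (5.87, others 5.00 to 5.12), and 2008-2 for F58D5.2 (8.28, others 9.14 to 9.27).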

How the results depend on the processing

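Counts of calls depended on how the years were handled. With a year term per strain, values and counts of strain differences refer to 2007, not to the average of both years. In the irradiated comparison 3 probe sets were called, 2 with the replicate block, 31 with a year term per strain, 1 with the 2007 arrays alone, 1 (haf-6) on values as deposited, 0 with quantile normalization within each year, 33 with array weights, 14 with 1 weight per year, 1 with the compared groups alone, and 2 without any single irradiated array. Untreated, 2 became 54 with a year term per strain, 1 on deposited values, 0 with median centring, 0 within each year, 1 with log2(value + 1), 4 with array weights, 5 with 1 weight per year and 1 with the compared groups alone. Averaged over treatments, 4 became 179, 1 with 2007 alone, 7 with median centring, 7 with log2(value + 100), 87 with array weights and 53 with 1 weight per year. With 2007 alone the 1 call was C39D10.7 (4.13 in 2007, 0.21 in 2008), which is none of the 3. The interaction had 0 calls in every setting run. On deposited values the median of all probe sets was -0.081 after UVC and -0.13 without. The cause of these shifts was not tested.

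The difference of xpa-1 lost its call with 2007 alone (-3.86), as deposited (-3.94) and within each year (-3.54), and mks-6 with 2007 alone (3.73), as deposited (2.40), within each year (2.298) and with the compared groups alone (3.29). For haf-6 this held with the replicate block (-2.19), no year term (-2.19), 2007 alone (-2.61), 2008 alone (-1.77), within each year (-1.58), log2(value + 1) (-2.74), log2(value + 100) (-1.59), the compared groups alone (-2.19) and each array left out (-2.34 to -1.92). With array weights ifbp-1 (-0.57) and nhr-88 (-0.62) were also called. The replicate block changed no other call of the irradiated comparison.

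Of the named genes that were not called, 16 changed sign. With a year term per strain glp-1 stood at 0.029, cep-1 at 0.012, egl-1 at 0.064, catp-3 at -0.22, F54B8.4 at 0.017, pas-2 at -0.018 and par-3 at 0.012. With 2007 alone glp-1 stood at 0.11, catp-3 at -0.30 and par-3 at 0.0037. With 2008 alone F54B8.4 stood at 0.0011, pro-3 at -0.14, rpt-6 at 0.30, cyp-13A4 at -0.11, pdi-6 at -0.041, atfs-1 at -0.038, pes-10 at 0.37 and nob-1 at 0.18. As deposited catp-3 stood at -0.25, rpb-6 at -0.055, pas-2 at -0.041 and lipl-7 at -0.076, and with median centring at -0.21, -0.015, -0.00080 and -0.036. Scaled to the 75th percentile glp-1 stood at 0.091. With 1 weight per year rpt-6 stood at 0.012 and pes-10 at 0.091, and with array weights pes-10 at 0.061. With arrays left out glp-1 lay between -0.16 and 0.12, catp-3 between -0.14 and 0.26 and F54B8.4 between -0.32 and 0.12.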

Other observations

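A group of probe sets of chromosome V also stood lower in the mutant with and without UVC; it was chosen after the values were seen and has no test of its own. The probe table gives each of 19 probe sets to genes of both the clone Y19D10A and the clones C01B4 or F56A4, so such a probe set does not tell the genes of its pair apart. Their median difference was -0.56 after UVC and -0.27 without it, beside 0 over all probe sets and 0.031 after UVC over the 887 probe sets that carry several genes. The median after UVC was -1.55 with the dimmest 40% left out, -1.25 with log2(value + 1), -0.83 with array weights or 1 weight per year, -0.86 without N2 UV 2007-1 and -0.35 with a year term per strain. The clones also hold 2 probe sets that carry 1 gene, of Y19D10A.4 (-1.45 after UVC, -0.44 without) and F56A4.10 (-0.51 and -0.47). Of the 19, 16 were below 0 after UVC, 13 without UVC and 12 in both. Over all 22548 probe sets these counts were 11014, 10940 and 6091, and over the 887 that carry several genes 382, 414 and 199. The probe set of the insulin and EGF receptor-like domain genes irld-53 and irld-35 differed by -2.29 (SE 0.68) after UVC and -2.12 without it, at 5.85 ± 0.22 in irradiated xpa-1 animals and 8.14 ± 0.90 in irradiated N2 animals (SD, n = 4 each). That of Y19D10A.5 and C01B4.8 differed by -2.03 and -1.68, and 2 of Y19D10A.16 and C01B4.6 by -1.70 and -1.65 and by -1.44 and -1.96. The probe set of F56A4.2 and the C-type lectin gene clec-209 differed by -1.31 (SE 0.29) and -1.61 and was the 1 called in the average over treatments (-1.46, SE 0.21, limma adjusted p = 0.0054). In that average the 19 probe sets held 4 of the 7 calls with median centring and 3 of the 7 with log2(value + 100). They held 2 of 5 with the replicate block and 7 of 53 with 1 weight per year. With array weights they held 8 of 87, and with a year term per strain 8 of 179. After UVC 0 of them were called, against 2 of all 31 calls with a year term per strain and 1 of 33 with array weights. Without UVC 0 were called, against 1 of 3 with the replicate block or with trend and robust variances. With a year term per strain they held 4 of 54 calls without UVC. Some probe sets of this group that differed little were dim. That of the chemoreceptor genes srd-62 and srd-76 (-0.038 after UVC) had means of 5.72 in irradiated xpa-1 and 5.76 in irradiated N2 animals. Those of Y19D10A.10 and F56A4.11 also differed little (0.050 and 0.13). Their single arrays reached 7.67 in N2 UV 2007-2 and 7.10 in xpa-1 UV 2007-1, above the lowest level of 5.00.

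Other strain differences of chromosome I had the same sign in both treatments without being called in the average over treatments. The genes here were taken by their p in that average, which favours equal signs, so the shared sign is no separate support. Beside F58D5.2, those with the smallest p there were tmem-189 (0.53 after UVC, 1.01 without, adjusted p = 0.27), Y106G6D.8 (0.53 and 0.56, adjusted p = 0.31), C30F12.2 (-0.70 and -0.99, adjusted p = 0.31), fbxa-124 (0.61 and 0.88, adjusted p = 0.64) and Y92H12A.2 (-0.48 and -0.87, adjusted p = 0.77). With 1 weight per year tmem-189, C30F12.2 and F58D5.2 were called in that average, and fbxa-124 with quantile normalization within each year. Such differences were not limited to chromosome I, which holds 2469 of the 17075 genes with a known chromosome. A probe set of frm-3 (X, -1.79 after UVC, -0.69 without, adjusted p = 0.35 in that average) also kept its sign. So did C39D10.7 (X, 2.17 and 2.13, adjusted p = 0.56) and scl-2 (IV, 0.78 and 0.55, adjusted p = 0.64). The C39D10.7 difference after UVC was 4.13 in 2007 and 0.21 in 2008.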
